A study of Mus musculus with 3 samples.

Results

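The cytosolic ribosomal protein genes were taken from the gene symbols of 3 single-cell count tables of mouse cerebellum. Members were the symbols made of Rpl or Rps and a number, with an optional letter and a further digit, together with Rplp0, Rplp1, Rplp2 and Rpsa; symbols that end in a pseudogene suffix (-ps) and Rps3a3 were left out. This gave 81 of the 16181 genes listed, 33 with symbols of the small 40S subunit and 48 with symbols of the large 60S subunit. Of the 33, Rps3a2 is annotated as a processed pseudogene and Rps4y2 as a transcribed pseudogene, and Rps12l2 was not matched to the reference annotation. Rpl36al and Fau are listed but fall outside the symbol rule, and Rps12, Rps27, Rpl3l, Rpl10l, Rpl39l and Rack1 were not analysed here.

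Cytosolic ribosomes translate nearly all proteins of the cell and are built in the nucleolus from ribosomal RNA and about equal amounts of each ribosomal protein. Growing and dividing cells make ribosomes at a high rate, and the mRNAs of ribosomal proteins are among the most abundant of such cells. Most of these mRNAs start with a C followed by a run of pyrimidines, the terminal oligopyrimidine (TOP) motif, through which mTORC1 signalling controls their translation.

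Single cells were profiled by Drop-seq, which captures the 3′ ends of mRNAs on beads and counts each molecule once through its unique molecular identifier (UMI). Each of the 3 libraries came from 1 P7 mouse, and all 3 mice were untreated Eed cKO animals (Math1-Cre/Eed fl/fl). Eed encodes a core subunit of PRC2, the complex that methylates lysine 27 of histone H3; Math1 is another name of Atoh1, and this promoter drives Cre in cerebellar granule neuron progenitors (CGNPs), whose descendants are cerebellar granule neurons (CGNs). Cells of other lineages carry the floxed alleles but are not expected to express Cre, and no control genotype was analysed here, so each comparison is between cell groups of the same 3 mice.

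After filtering, 2373 cells remained (918, 547 and 908 in mice 1, 2 and 3) with 3081202 UMIs; the libraries shared no barcode. Median UMIs per cell were 919.5, 857 and 1408. Eed was represented by 17, 5 and 13 UMIs in CGNP/CGN-like cells and by 25, 12 and 29 UMIs in cells outside the lineage, or 30.2, 14.1 and 21.8 against 70.1, 79.2 and 45.3 CPM (counts of UMIs scaled to 1000000 in each group). It was lower in the CGNP/CGN-like cells (log2 fold change −1.42, SE 0.38, adjusted p = 0.0175 by edgeR's quasi-likelihood test), although 3′ counts need not cover the deleted exons. Clusters were found without the ribosomal protein genes and are called "-like" after the markers they expressed. Granule lineage cells formed 5 clusters, 3 of proliferating CGNP-like cells (669 cells) and 2 of differentiating CGNP/CGN-like cells (520 cells).

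The members held 135025 UMIs, or 4.38% of all UMIs, and 99.9% of cells had at least 1. Their 3′ UMI counts, which are not scaled to length since each molecule is counted once, spanned 4 (Rps3a2) to 9509 (Rps19) with a median of 1067. Rps19, a 40S protein needed for maturation of its subunit and mutated in Diamond-Blackfan anemia, ranked 8 among all genes and was seen in 86.2% of cells. Rpl41, the smallest ribosomal protein, followed with 8396 UMIs, then Rps14 with 5823, Rps9 with 5504 and Rpl13a with 4237. These 5 genes held 24.8% of the members' UMIs and the top 20 held 63.4%, while 8 members had fewer than 100. The P stalk genes Rplp0, Rplp1 and Rplp2, whose proteins recruit elongation factors to the ribosome, had 3337, 2663 and 2021 UMIs, and Rpsa, the 40S protein also described as a laminin receptor precursor, had 621. Some core proteins had few UMIs under their own symbol, with 56 for Rps6, 57 for Rpl10 and 8 for Rpl3. Near-identical copies of Rpl3 held 213, 66 and 277 UMIs in mice 1, 2 and 3 and those of Rps6 221, 71 and 152, more than the genes themselves.

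Start-site sequences were read for members with an entry in the RefSeq promoter table (build GRCm38.p6), from 30 bases before to 20 bases after the annotated start. They are shown since the TOP motif is the feature by which ribosomal protein mRNAs are known, for the members that the results turn on and that had an entry. Capitals mark the longest unbroken run of C and T that starts with C and has at least 8 bases, or the first of 2 equally long runs. A sequence without capitals has none in this window. Where a gene had more than 1 annotated start the most 5′ one is shown, as for Rps19, with 3 starts, and Rps27l, with 2.
Rpl13a (chr7:45128726-45128775, − strand): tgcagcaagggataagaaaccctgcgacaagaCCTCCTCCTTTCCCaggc
Rplp2 (chr7:141447621-141447670, + strand): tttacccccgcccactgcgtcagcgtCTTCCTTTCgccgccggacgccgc
Rps9 (chr7:3704011-3704060, + strand): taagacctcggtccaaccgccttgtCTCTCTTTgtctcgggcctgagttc
Rpl22l1 (chr3:28805478-28805527, + strand): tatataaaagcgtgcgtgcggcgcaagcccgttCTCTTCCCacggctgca
Rps27l (chr9:66946056-66946105, + strand): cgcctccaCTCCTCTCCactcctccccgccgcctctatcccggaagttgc
Rps19 (chr7:24884562-24884611, + strand): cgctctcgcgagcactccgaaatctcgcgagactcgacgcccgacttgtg
Rpl41 (chr10:128549149-128549198, − strand): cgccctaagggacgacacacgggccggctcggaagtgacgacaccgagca
Rpl11 (chr4:136053374-136053423, − strand): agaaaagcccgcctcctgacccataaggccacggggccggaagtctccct
Rpsa (chr9:120127736-120127785, + strand): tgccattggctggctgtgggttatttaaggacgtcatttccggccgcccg
Rplp0 (chr5:115559437-115559486, + strand): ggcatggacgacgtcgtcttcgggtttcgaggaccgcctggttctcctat
The table held 69 start sites for 58 member genes. A pyrimidine run of this kind was present in 31 of the 69 windows (44.9%), against 5234 of 32851 windows of the same length over all genes (15.9%). CGGAA, the core letters of sites for ETS-family factors, was found on either strand in 24 of the 69 member windows (34.8%) and in 9.70% of all windows. Rpl13a carries its run within a few bases of the annotated start. The marked run of Rps27l lies upstream of the start, and a further run of equal length, in lower case, lies between them. Rps19 and Rpl41, the most counted members, have none in the windows shown. Such matches describe letters and not function, and the annotated start may differ from the start used in these cells.

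Ribosomal protein share was highest in proliferating CGNP-like cells, at 5.31%, 6.73% and 6.53% of UMIs in mice 1, 2 and 3 (mean 6.19% ± 0.77, SD, n = 3 mice). The myoid-like cells, a group that expressed skeletal muscle genes such as Actc1, Mylpf and Myog, were close to them at 4.93%, 6.73% and 6.25% (5.97% ± 0.93). The lowest shares were those of a cluster led by Syt4, Pcp4 and Calb1, called the Calb1+ cluster here, at 1.40%, 2.18% and 2.33% (1.97% ± 0.50), and of astrocyte-like cells, at 2.28%, 2.30% and 3.03% (2.54% ± 0.43).

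Between these ends, endothelial-like cells stood at 4.75% ± 0.78, myeloid-like cells at 4.68% ± 0.69, oligodendrocyte-like cells at 3.93% ± 0.42 and interneuron progenitor-like cells at 3.88% ± 0.35. Vascular fibroblast-like cells followed at 3.77% ± 0.67, differentiating CGNP/CGN-like cells at 3.58% ± 0.46, pericyte-like cells at 3.42% ± 0.43 and interneuron-like cells at 3.29% ± 0.35. Each group overlapped in range with its neighbour in this order. Within mice, the share was above that of the next group in 3 of 3 mice for myoid-like over endothelial-like cells (1.22 ± 0.38 percentage points), myeloid-like over oligodendrocyte-like cells (0.75 ± 0.29), vascular fibroblast-like over differentiating CGNP/CGN-like cells (0.19 ± 0.21), interneuron-like over astrocyte-like cells (0.75 ± 0.34) and astrocyte-like cells over the Calb1+ cluster (0.57 ± 0.40). The other 6 neighbouring pairs were not ordered alike in the 3 mice. Mouse 1 had the lowest share in every group, so folds are given within mice.

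**Figure D1:**
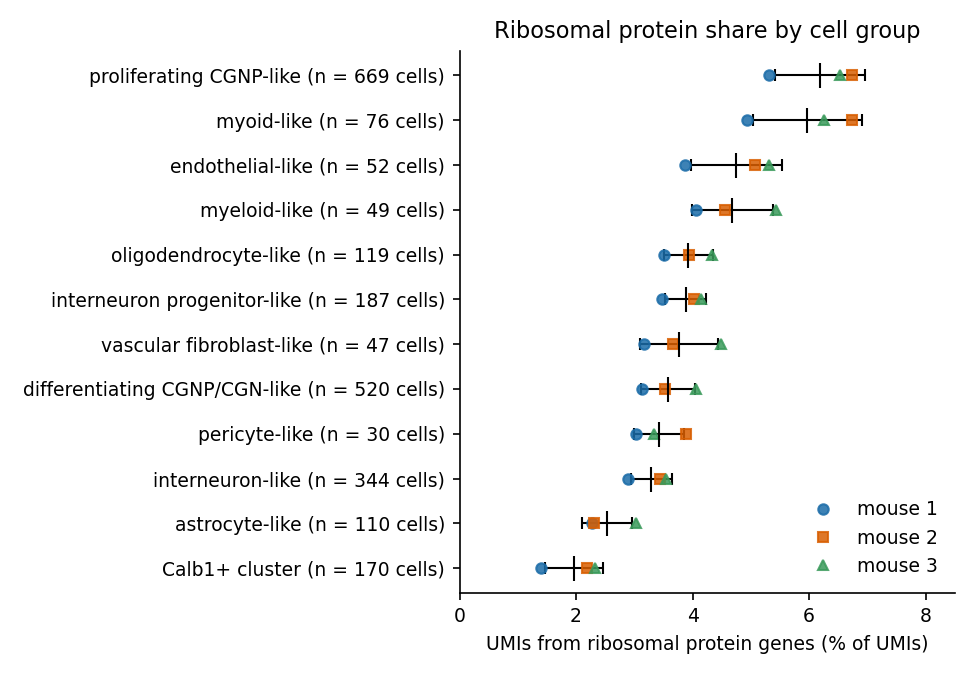
Percentage of UMIs from the 81 ribosomal protein genes (x axis) in 12 cell groups (y axis, number of cells in brackets). Points are mice, the vertical tick is the mean and the bar the SD over 3 mice; proliferating CGNP-like cells lie between 5.31% and 6.73% and the Calb1+ cluster between 1.40% and 2.33%.

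The Calb1+ cluster was given no cell type name. The Purkinje cell markers Calb1, Pcp2, Pcp4 and Syt4 were raised in it, but so were 7 markers of differentiating CGNs. The whole list of 15 markers of differentiating CGNs summed to 9871 to 11446 CPM there, against 528 to 3439 for the 8 Purkinje markers. Of its 170 cells, 118 came from mouse 3 and 10 from mouse 2. The part of granule neurons in its low ribosomal protein share was not tested.

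Both subunits took part in these differences. The 40S genes held 44.3% and the 60S genes 55.7% of the members' UMIs. The 60S to 40S ratio was 1.22 ± 0.07 in proliferating and 1.19 ± 0.08 in differentiating granule lineage cells. It was 1.49 ± 0.09 in the Calb1+ cluster, 1.41 ± 0.11 in vascular fibroblast-like and 1.36 ± 0.09 in astrocyte-like cells (SD, n = 3 mice).

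Single members followed the total to different degrees. Among the 61 members with at least 300 UMIs, 27 had their highest mean level in proliferating CGNP-like cells and 19 in myoid-like cells. Endothelial-like cells were highest for 7 members (among them Rpl31, Rpl37a, Rpl38, Rps14, Rps20 and Rps7) and myeloid-like cells for 4 (Rpl10a, Rpl11, Rpl35a and Rplp1). These are orders of means, and in the smaller groups they can rest on few UMIs: Rpl36a, for which pericyte-like cells led, had 0, 3 and 2 UMIs there in mice 1, 2 and 3. The Calb1+ cluster was lowest for 38 of the 61, and pericyte-like cells were for 9 and astrocyte-like cells for 8. None of these counts was made over all genes, so they have no background.

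Within the granule lineage the share differed between clusters, with the highest value in a progenitor-like cluster and the lowest in a differentiating cluster. The progenitor-like cluster marked by Atoh1, Sfrp1 and Ccnd1 held 6.17%, 7.42% and 7.61% (7.07% ± 0.78), the S-phase cluster 5.20%, 6.26% and 6.45% (5.97% ± 0.68) and the mitotic cluster 4.32%, 5.59% and 5.65% (5.19% ± 0.75). The Mab21l2+ Barhl1+ cluster, an early differentiating state by its markers, held 4.77%, 5.29% and 6.09% (5.38% ± 0.66). The Cntn2+ cluster, named for an adhesion protein of granule neurons in the inner external granule layer, held 2.27%, 2.67% and 3.22% (2.72% ± 0.48).

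The step between the Mab21l2+ and the Cntn2+ cluster was thus the widest between neighbouring clusters, with within-mouse ratios of 2.11, 1.98 and 1.89 and no overlap in range. The Atoh1+ cluster exceeded the S-phase cluster by 1.18 to 1.19 times and the S-phase cluster exceeded the mitotic cluster by 1.12 to 1.2 times, each in 3 of 3 mice. Mitotic and Mab21l2+ clusters were not ordered alike in the mice, with ratios of 0.91, 1.06 and 0.93. From end to end, the Atoh1+ cluster held 2.62 ± 0.23 times the share of the Cntn2+ cluster.

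Counted per cell, the order was another. S-phase and mitotic cells held a mean of 99.4 and 103 ribosomal protein UMIs per cell, above the 84.5 of the Atoh1+ cluster, and their median total UMIs were also larger, at 1297 and 1742 against 919. The Mab21l2+ and Cntn2+ clusters held 61.4 and 29.8 ribosomal protein UMIs per cell at nearly the same median depth, 900 and 901.5 UMIs. Globin mRNA took 0.716%, 0.0396% and 1.46% of UMIs in the Atoh1+ cluster, and 0.0363%, 0.0357% and 0.0176% in the S-phase cluster, so it was the larger by a wide margin in mice 1 and 3 and close in mouse 2. Without globins and mitochondrial mRNAs in the total its ribosomal protein share was 7.17% ± 0.80.

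**Figure D2:**
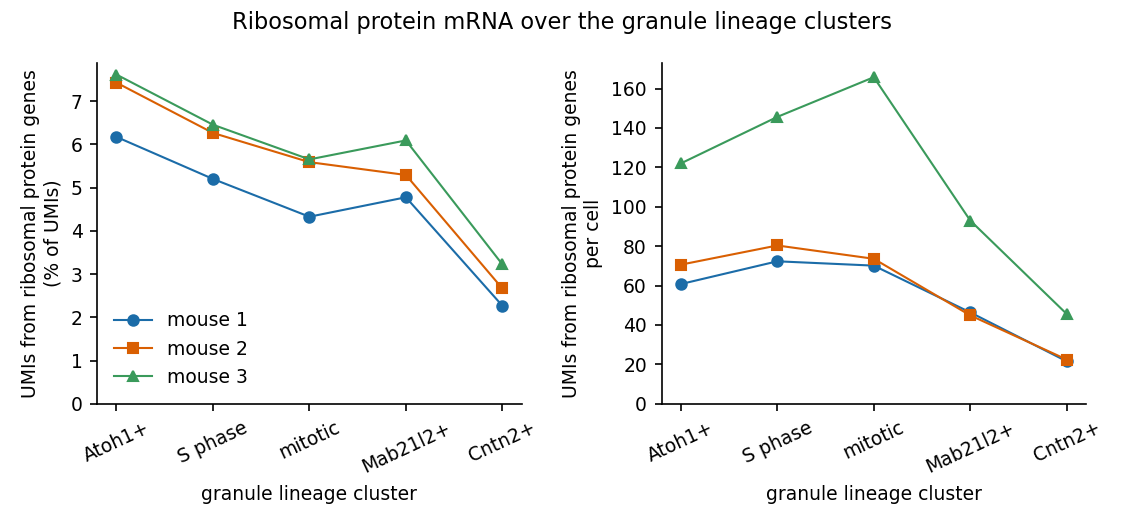
Ribosomal protein UMIs in the 5 granule lineage clusters (x axis) as a percentage of UMIs (left) and as UMIs per cell (right), 1 line per mouse. The share is highest in the Atoh1+ cluster and lowest in the Cntn2+ cluster in each of the 3 mice, while UMIs per cell are highest in the S-phase or the mitotic cluster.

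Most members shared their highest and their lowest cluster. Of the 61 members with at least 300 UMIs, 53 had their highest mean level in the Atoh1+ cluster and 60 had their lowest in the Cntn2+ cluster. The same was not counted over all genes, so these counts have no background to be set against. Rps19 stood at 5774 ± 792 CPM in the Atoh1+ cluster, 4608 ± 894 in S phase, 4498 ± 741 in the Mab21l2+ cluster and 1679 ± 188 in the Cntn2+ cluster. Rpl41 stood at 4527 ± 586 in the first and at 1517 ± 332 in the last of these. Rps27l, at 991 ± 261 CPM in the Atoh1+ cluster and 777 ± 70 in S phase, stood at 563 ± 163 in the Mab21l2+ and 233 ± 25.1 in the Cntn2+ cluster. Rpl22l1 had 645 ± 156, 498 ± 111, 354 ± 277 and 151 ± 17.5 CPM in the same order, with a spread between mice in the Mab21l2+ cluster nearly as large as its mean. The members that peaked elsewhere were Rpl7l1, Rps21, Rps24, Rps3a1 and Rpsa in S phase and Rpl30, Rpl6 and Rps29 in the mitotic cluster. Rps13, a 40S protein, was the exception at the low end, with its minimum in the Mab21l2+ cluster.

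The comparison of proliferating with differentiating cells asked how these genes change with the stage of granule neuron development. The proliferating group held 1.69, 1.91 and 1.61 times the ribosomal protein share of the differentiating group in mice 1, 2 and 3 (1.74 ± 0.15), and 2.37 ± 0.14 times the UMIs per cell. The shares of both subunits differed alike, 2.79% against 1.64% for 40S and 3.4% against 1.94% for 60S genes. Gene by gene, 70 of the 81 members passed the filter on low counts; the other 11 had 4 to 135 UMIs in all cells. By edgeR's quasi-likelihood test with Benjamini-Hochberg adjustment over 4997 genes, 45 of the 70 were higher in proliferating cells at adjusted p under 0.05 and 0 were lower; at an unadjusted p under 0.05 they were 60 higher and 0 lower (38.9% of all genes in either direction), and DESeq2 called 40 higher and 0 lower. Of all genes tested, 13.9% were higher and 14.7% were lower. The calls took in 19 of 30 tested 40S and 26 of 40 tested 60S genes. The median log2 fold change was 0.77 over the tested members and 0.01 over all genes tested.

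The members that differed most were not the most abundant ones. Rps27l, a p53-inducible paralog of Rps27, had 702, 1129 and 771 CPM in proliferating and 352, 403 and 266 in differentiating cells of mice 1, 2 and 3. The groups did not overlap, and Rps27l was higher in proliferating cells by a log2 fold change of 1.36 (SE 0.23, adjusted p = 0.00017, edgeR). Rpl22l1, the paralog of the RNA-binding 60S protein Rpl22, had 452, 515 and 686 against 176, 145 and 317 CPM. It was higher by 1.32 (SE 0.27, adjusted p = 0.00087, edgeR), again without overlap.

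Rps27a encodes ubiquitin fused to a 40S protein and is a low-count gene here, at 85.1, 90.8 and 70.3 against 37.3, 16.1 and 39.1 CPM. It was higher by 1.28 (SE 0.38, adjusted p = 0.0154, edgeR) and was not called by DESeq2 (adjusted p = 0.117). Rpsa stood at 306, 337 and 302 against 139, 113 and 180 CPM, with a log2 fold change of 1.08 (SE 0.23, adjusted p = 0.00144, edgeR). Rpl11, which binds MDM2 when ribosome assembly is disturbed, stood at 197, 285 and 270 against 117, 137 and 106, with a log2 fold change of 1.07 (SE 0.25, adjusted p = 0.00273, edgeR). In each of these genes the lowest proliferating value lay above the highest differentiating value.

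Among the most counted members, Rps19 had 4462, 6153 and 4320 CPM in proliferating and 2371, 3007 and 2396 in differentiating cells. Rpl41 had 3472, 4410 and 4150 against 1934, 1951 and 2373. These pairs do not overlap, and the log2 fold changes were 0.94 for Rps19 (SE 0.19, adjusted p = 0.000797) and 0.93 for Rpl41 (SE 0.18, adjusted p = 0.000477, edgeR). Rpl13a, also known for a role in translational silencing outside the ribosome, was higher by 0.80 (SE 0.18, adjusted p = 0.0024, edgeR). Rpl39, a very short 60S protein near the exit tunnel, stood at 671, 886 and 988 against 373, 355 and 481 CPM and was higher by 1.05 (SE 0.21, adjusted p = 0.000873, edgeR). Rpl32 stood at 1881, 2391 and 2078 CPM in proliferating cells, with a log2 fold change of 1.02 (adjusted p = 0.00035, edgeR). Rps9 and Rps14 changed less, by 0.57 and 0.51 with SEs of 0.18 (adjusted p = 0.0195 and 0.0381, edgeR).

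The P stalk genes rose together. Rplp0 had 1189, 1578 and 1940 CPM in proliferating and 671, 806 and 1055 in differentiating cells, and its log2 fold change was 0.88. Rplp1 had 982, 1297 and 1243 against 538, 637 and 637, and Rplp2 had 793, 1077 and 1014 against 474, 443 and 528. Their log2 fold changes were 0.95 and 0.98, and all 3 passed the test (adjusted p = 0.00436 for Rplp0, 0.000866 for Rplp1 and 0.000824 for Rplp2, edgeR).

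Members that did not pass included Rpl15 (log2 fold change −0.49, adjusted p = 0.309), Rpl27 (−0.00, adjusted p = 0.993) and Rps4y2 (−0.04, adjusted p = 0.955, edgeR), the only tested members below 0. Rps18 and Rps3a1 had values of 1.05 and 0.59 with large errors (adjusted p = 0.320 and 0.628, edgeR), and both shared their UMIs with near-identical copies. Of the 70 tested members, 50 had groups without overlap, all of them higher in proliferating cells; the share over all genes in this direction was 21.2%.

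**Figure D3:**
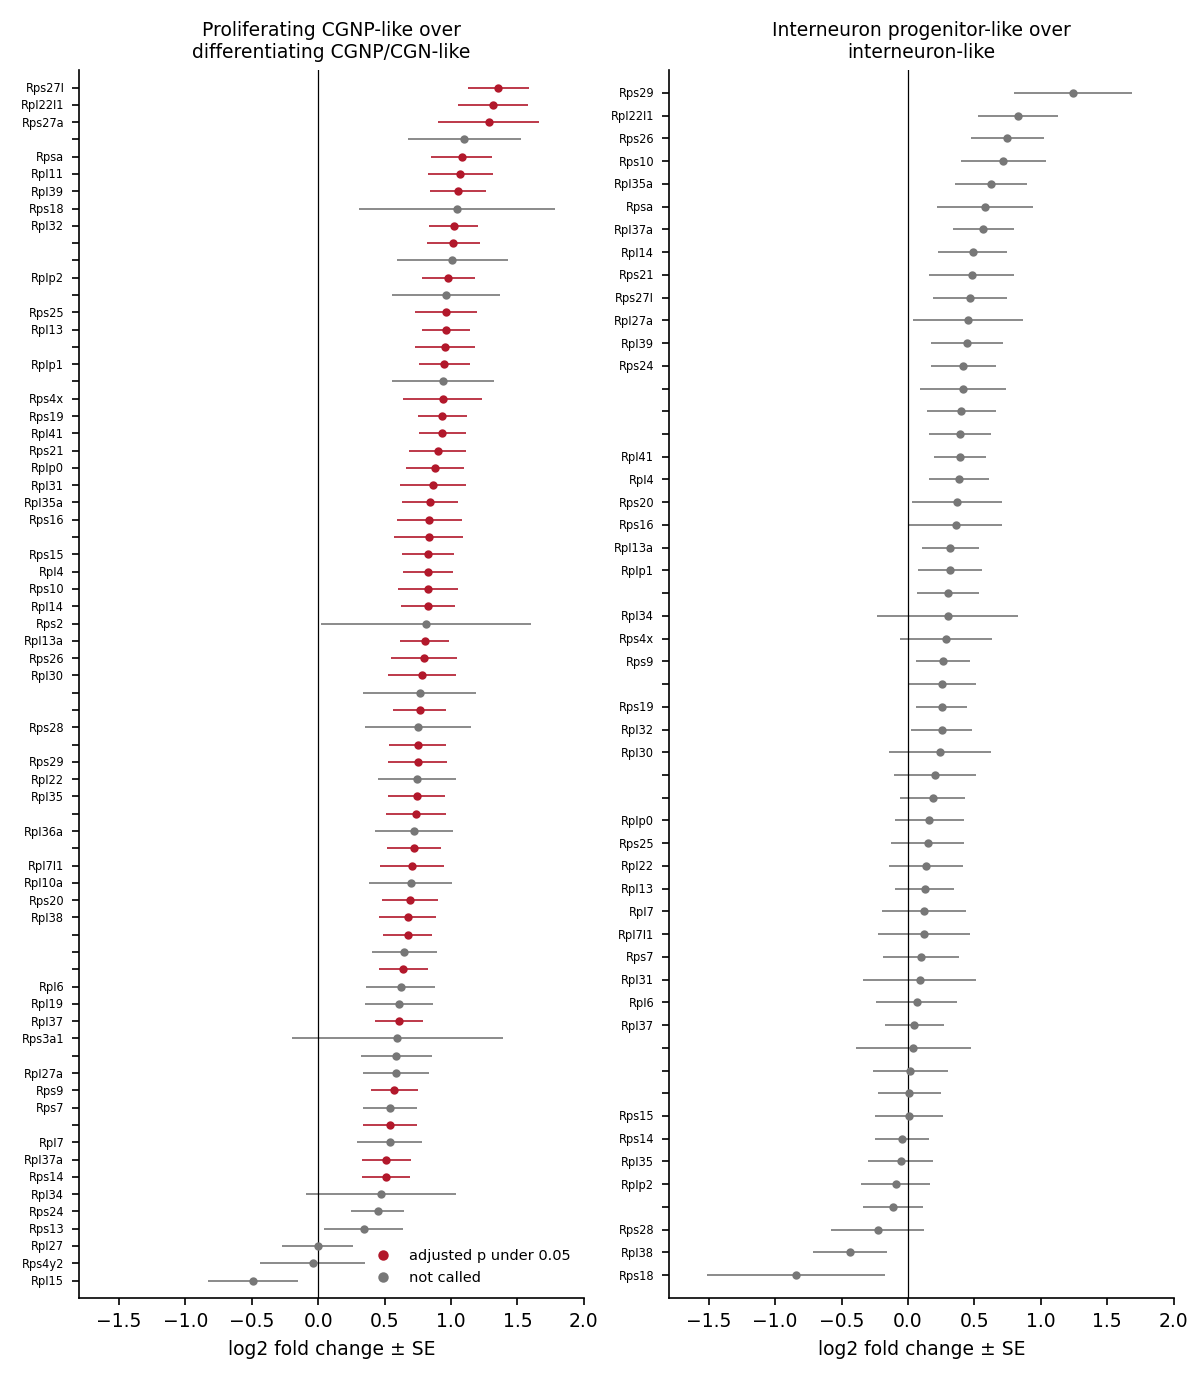
Log2 fold change ± SE (x axis) of each tested ribosomal protein gene (y axis, ordered by value, with names for members described in the text) between stages of the granule lineage (left, 70 genes) and of the interneuron lineage (right, 53 genes); red marks adjusted p under 0.05 by edgeR. On the left 45 genes are red and the values range from −0.49 to 1.36, on the right none is red.

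A fit with the mouse as a block, which pairs the groups of 1 animal, called 65 of the 70 members higher (20.4% of all genes), and a fit of all cell groups together called 20. At a clustering resolution of 0.4 the Atoh1+ cluster merged with the Mab21l2+ cluster under the differentiating name and edgeR called 0 members, and at the main resolution 29 and 17 were called without mouse 1 and without mouse 2.

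When the members' own sum served as the scale, few members stood apart from the rest. On this scale 0 members were higher and 2 were lower in proliferating cells, Rpl15 (log2 fold change −1.24, adjusted p = 0.0113) and Rpl27 (−0.78, adjusted p = 0.0496, edgeR). Both are 60S proteins. Rpl15 had 56, 25 and 138 UMIs over all cells and its leading copy Gm8420 had 269, 394 and 959.

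Ribosomal protein genes were next compared between the lineage in which Eed was deleted and the cells outside it, leaving out myoid-like cells and the Calb1+ cluster. CGNP/CGN-like cells held 4.59%, 5.61% and 5.47% of UMIs in members (5.22% ± 0.56) and the cells outside 3.24%, 3.77% and 3.87% (3.63% ± 0.34), without overlap, a ratio of 1.44 ± 0.04. The differentiating CGNP/CGN-like cells alone held 3.14%, 3.53% and 4.06%, below the cells outside in mice 1 and 2 and above them in mouse 3. Of 77 members tested, 12 were higher in CGNP/CGN-like cells by edgeR (among them Rpl4, Rpl14, Rpl32, Rpl37, Rpl41, Rps19, Rps24, Rps27l, Rps29 and Rpsa) and 0 were lower (39 higher and 0 lower at an unadjusted p under 0.05, where 22.7% of all genes passed; DESeq2 called 19 higher and 0 lower). Of all 7618 genes, 3.89% were higher and 8.65% lower. The median log2 fold change was 0.50 over the tested members and 0.02 over all genes.

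Rps29, a small zinc-binding 40S protein, had 225, 242 and 206 CPM against 118, 152 and 103 outside, a log2 fold change of 0.90 (SE 0.22, adjusted p = 0.0104, edgeR). Rps27l had 586, 875 and 554 against 331, 396 and 367 (0.88, SE 0.21, adjusted p = 0.00931). Rps19 had 3766, 5055 and 3496 against 2415, 2817 and 2141 (0.74, SE 0.18, adjusted p = 0.0110). In each of these the ranges were apart in all 3 mice.

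Rpsa followed at 0.73 (SE 0.22, adjusted p = 0.0334), with 250, 259 and 250 CPM against 165, 99.0 and 172 outside. Rplp1 did not pass (0.23, adjusted p = 0.489, edgeR). With the mouse as a block 46 members were higher (8.66% of all genes), and without mouse 1, 2 or 3 the count was 0, 2 or 5. The lineage differs from the others in cell type as well as in Eed, and these cannot be told apart without control mice.

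Myoid-like cells were compared with CGNP/CGN-like cells. Their share was 1.07, 1.2 and 1.14 times that of the CGNP/CGN-like cells in mice 1, 2 and 3, with overlapping ranges, and 0.93, 1.0 and 0.96 times that of the proliferating group. In myoid-like cells the 17 myoid markers stood at 24605 to 44237 CPM. The 8 vascular fibroblast markers, 3 of them detected, stood at 4116 to 6655 CPM. The 16 markers of proliferating CGNPs stood at 400, 1151 and 414 CPM. The part of these lists in the share was not tested. Of 72 members tested, 0 passed in either direction by edgeR, 7 had an unadjusted p under 0.05 (29.2% of all genes) and DESeq2 called 0; of all 4551 genes, 7.87% were higher and 12.2% lower. The median log2 fold change was 0.22 over the tested members and −0.14 over all genes. The lowest adjusted p was 0.0827, for Rpl27a (log2 fold change 0.81). Rps27a (1.12, adjusted p = 0.0858), Rps4y2 (1.18, adjusted p = 0.108), Rps29 (−0.88, adjusted p = 0.0955) and Rpl7l1 (−0.83, adjusted p = 0.101, edgeR) did not pass either, nor did Rpl5 (1.05, adjusted p = 0.272). With the mouse as a block, 2 members were higher in myoid-like cells by edgeR, where 8.46% of all genes were; one was Rpl37 (0.47, adjusted p = 0.00827).

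A second stage difference was taken between groups named from markers of GABAergic interneurons and their progenitors. Interneuron progenitor-like cells, marked by Ptf1a, Neurog1 and Kirrel2, held 3.48%, 4.02% and 4.15% of UMIs in members and interneuron-like cells 2.89%, 3.44% and 3.54%, a ratio of 1.18 ± 0.02 that was above 1 in 3 of 3 mice while the ranges overlapped. The list of 16 markers of proliferating CGNPs, most of them cell cycle genes, stood at 6087 to 6851 CPM in the progenitor-like and 530 to 725 in the interneuron-like cells. The 10 astrocyte markers stood at 1873 to 2387 CPM in the progenitor-like cells, where the 7 interneuron progenitor markers stood at 986 to 2051, and at 170 to 520 in the interneuron-like cells. The 15 markers of differentiating CGNs stood at 1920 to 1976 CPM in the progenitor-like and 4208 to 5148 in the interneuron-like cells, where the 8 interneuron markers stood at 2741 to 3430. The Purkinje markers in interneuron-like cells stood at 48.4, 24.3 and 1090 CPM in mice 1, 2 and 3, mouse 3 apart from the others. The part of these lists in the difference was not tested. Only 53 members had enough UMIs to be tested. By edgeR 0 passed in either direction, 6 had an unadjusted p under 0.05 (28% of all genes) and DESeq2 called 0, where 9.62% of 2026 genes were higher and 8.14% lower. The median log2 fold change was 0.26 over the tested members and 0.00045 over all genes. Rpl22l1 had 388, 363 and 473 CPM in progenitor-like and 230, 122 and 289 in interneuron-like cells, without overlap, with a log2 fold change of 0.83 and an adjusted p of 0.0545 (edgeR).

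With the mouse as a block, 7 members were higher in interneuron progenitor-like cells (Rpl22l1, Rpl35a, Rpl37a, Rpl41, Rps10, Rps26 and Rps29; 13.4% of all genes were). The difference between both stage differences was tested as an interaction. Of 69 members tested, 0 passed by edgeR, 15 had an unadjusted p under 0.05 (10.2% of all genes) and DESeq2 called 0 (0.334% and 0.897% of all genes were called in the granule and the opposite direction). The lowest adjusted p was 0.0999, for Rplp2, and the median interaction was 0.53 on the log2 scale against 0.02 over all genes. In the blocked fit 13 members had a larger stage difference in the granule lineage (among them Rpl13, Rpl32, Rpl35, Rpl38, Rpl41, Rplp0, Rplp2, Rps14, Rps15, Rps19 and Rps25; 1.36% of all genes).

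Several members have a related gene of similar name in the tables. Rpl22l1 made up 36.6%, 28.4% and 26.6% of the sum of Rpl22 and Rpl22l1 in proliferating cells of mice 1, 2 and 3 and 27.0%, 16.4% and 21.9% in differentiating cells, lower in 3 of 3 mice with overlapping ranges. In interneuron progenitor-like cells it made up 45.9%, 35.0% and 33.8%, and in interneuron-like cells 32.2%, 17.9% and 26.4%. Rpl22 itself did not pass between granule stages (0.74, adjusted p = 0.0667, edgeR). Over all cells Rpl7l1 took 46.3%, 55.6% and 33.5% of its sum with Rpl7, and Rps4y2 took 14.9%, 19.3% and 15.3% of its sum with Rps4x. In the reference annotation Rps4y2 is a synonym of Rps4l, a transcribed pseudogene. Rpl7l1 and Rps4x were higher in proliferating cells by 0.70 and 0.94 (SE 0.24 and 0.30, adjusted p = 0.0351 and 0.0225, edgeR).

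How reads were split between genes and their copies bears on single members. Ribosomal protein mRNAs have left many processed copies in the genome, and the tables list 322 rows whose 3′ sequence was at least 95% identical to a member; these held 32047 UMIs, or 1.22%, 1.04% and 0.924% of UMIs in mice 1, 2 and 3. For 18 members the copies had more UMIs than the gene itself. This set of copies is not complete, since Gm13826, named in RefSeq as a retrotransposed copy of Rpl37, was not counted as a copy of Rpl37. Rps18 had 132, 448 and 98 UMIs while its copy Gm10260 had 996, 322 and 1329. Rps3a1 had 65, 15 and 787 UMIs while Rps3a3 had 709, 470 and 835. In both the gene varied between mice far more than the sum did.

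Of the 73 members with at least 100 UMIs, 5 varied more than 4-fold in level between mice: Rps3a1, Rps18, Rps2, Rpl34 and Rps28. With their copies added 1 of these remained so, Rpl34, which has no copy in the tables and stood at 138, 104 and 554 CPM. The sums for Rps18 were 1157, 1437 and 943 and those for Rps3a1 790, 908 and 1071 CPM. Over the 73 members the median fold between the highest and the lowest mouse was 1.34 without and 1.31 with copies. With copies added, 56 of 78 tested members were higher in proliferating cells, against 45 of 70 without copies. Of all genes, 13.9% were higher without copies, and the share with copies is not given here.

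**Figure D4:**
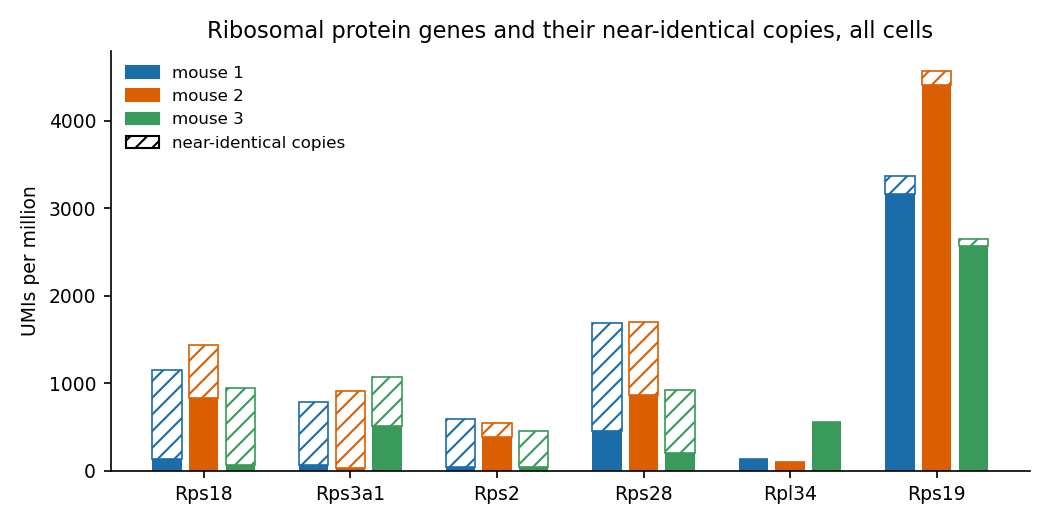
CPM over all cells (y axis) of the 5 members that varied most between mice and of Rps19 (x axis), 1 bar per mouse; solid parts are the gene and hatched parts its near-identical copies. For Rps18, Rps3a1 and Rps2 the solid part differs at least 10-fold between mice while the whole bar differs less, and Rpl34 has no hatched part.

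Other genes of ribosome production and its control were counted from lists of known genes. Between proliferating and differentiating cells, 13.9% of all genes tested were higher and 14.7% lower by edgeR, with a median log2 fold change of 0.01. An unadjusted p under 0.05 was found for 38.9% of all genes in either direction. Of 54 tested ribosome biogenesis genes, 21 were higher and 0 lower by edgeR, with a median log2 fold change of 0.66 (28 and 0 at an unadjusted p under 0.05, 15 and 0 by DESeq2). They included Gar1 (2.05) and Dkc1 (1.68) of the H/ACA particles that modify ribosomal RNA, and Gnl3 (1.73), a nucleolar GTPase. Gar1 had 210, 173 and 193 CPM in proliferating and 37.3, 56.4 and 46.9 in differentiating cells, and Dkc1 had 306, 303 and 322 against 85.3, 88.7 and 109. For both the lowest proliferating value was well above the highest differentiating value.

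Of 43 translation factors and other genes with TOP mRNAs, 11 were higher and 0 lower (median 0.39; 19 and 1 at an unadjusted p under 0.05, 6 and 0 by DESeq2), among them Pabpc1, the poly(A)-binding protein, at 2049, 2019 and 2503 against 938, 806 and 1360 CPM (log2 fold change 1.07). Eef1d and Nap1l1 were also higher, by 1.21 and 0.97. Of 71 mitochondrial ribosomal protein genes 11 were higher and 0 lower, where 13.9% of all genes were higher and 14.7% lower, and their median was 0.32 (14 and 0 at an unadjusted p under 0.05, 5 and 0 by DESeq2); Mrps28, Mrpl17 and Mrpl42 led at 1.55, 1.33 and 1.09. The RNA polymerase I list had 2 of 10 higher (Znrd1 and Taf1d, 1.13 and 1.09) by edgeR and 0 by DESeq2, and the mTORC1 list had 0 of 10 called in either direction by edgeR, by DESeq2 or at an unadjusted p under 0.05. In the list of ribosome turnover and nucleolar stress, G3bp1 (0.98) and Usp10 (0.70) were higher and G3bp2 (−0.63) lower among 8 by edgeR, while DESeq2 called 1 higher and 0 lower.

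In the MYC network, Mycn and Mxd3 were higher in proliferating and Mlx in differentiating cells among 8 tested by edgeR, while DESeq2 called 2 higher and 0 lower. Mycn, the MYC factor of CGNPs, had 277, 268 and 261 CPM in proliferating and 117, 105 and 106 in differentiating cells (log2 fold change 1.29). Mxd3 had 30, 13 and 30 UMIs against 0, 0 and 2. In the interneuron lineage the direction of Mycn was opposite, at 103, 156 and 144 CPM in progenitor-like and 278, 243 and 271 in interneuron-like cells, and the interaction was 2.31 (SE 0.38, adjusted p = 0.00055, edgeR). These interneuron lineage values of Mycn rest on 9, 3 and 21 UMIs in progenitor-like and 23, 10 and 61 in interneuron-like cells. DESeq2 did not call Mycn within the interneuron lineage. The ribosomal protein share of the earlier stage was above that of the later stage in 3 of 3 mice in both lineages. The ratio was 1.74 ± 0.15 in the granule lineage and 1.18 ± 0.02, with overlapping ranges, in the interneuron lineage. A link between Mycn and the share was not tested.

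Against cells outside the lineage, CGNP/CGN-like cells had 4 of 66 biogenesis genes higher, led by Rrp15 (0.99), Dkc1 (0.93) and Npm1 (0.79), and 1 of 44 translation genes, Pabpc1 (0.72), where 3.89% of all genes were higher. The mitochondrial ribosomal protein, RNA polymerase I, mTORC1 and turnover lists had 0 calls there by edgeR and by DESeq2, with 6, 3, 1 and 2 genes at an unadjusted p under 0.05. Mycn was higher by 0.83, while Mxd4 (−0.88) and Myc (−1.95) were lower by edgeR; DESeq2 called 0 of the MYC network higher and 1 lower, Mxd4. In myoid-like cells Eif4ebp1, a repressor of cap-dependent translation under mTORC1, had 21, 3 and 13 UMIs against 17, 22 and 12 in the far larger CGNP/CGN-like group (log2 fold change 2.95). Rps6kb1, the kinase of Rps6, stood at 500, 398 and 524 against 163, 158 and 173 CPM (1.60). Mycn had 0 UMIs in the myoid-like cells of all 3 mice and 126, 75 and 116 in the CGNP/CGN-like cells.

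The remaining calls of these lists were few. In myoid-like cells Eef1g, Naca and Eif5 were higher by 0.79, 0.76 and 0.75, as were Mrps28 (1.14) and Taf1d (1.03), and Lamtor2 (−1.07) was lower. Mrps25 and Usp10 were also lower there, at 2, 0 and 0 and at 4, 0 and 2 UMIs in mice 1, 2 and 3. In interneuron progenitor-like cells Nap1l1 (1.01), Mrpl42 (0.94), Nop58 (0.93) and Pabpc1 (0.66) were higher, and Mxd4 (−1.42) and Mycn (−1.03) were lower. DESeq2 called 0 genes of the translation factor, biogenesis, mitochondrial ribosomal protein, RNA polymerase I and turnover lists in either of these comparisons, and 0 of the MYC network in the interneuron lineage.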

How the data were processed

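Part of the cerebellum of each of 3 mice, 1 library each, was dissociated with papain and taken through Drop-seq. The values are UMI counts per gene and barcode as deposited by the authors, not normalized, with 1003741, 540816 and 1536645 UMIs in the cells kept of mice 1, 2 and 3; the submitters' processing notes name STAR and mm10, without version, and how reads that map to several genes were handled is not given in the sources used here. All columns were assigned to a mouse.

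Of 3481 barcodes, 2373 passed the filters of the study's methods (at least 500 UMIs and 200 genes, at most 4 SD above the median, applied here within each mouse, and at most 10% mitochondrial UMIs). Scrublet marked 14 barcodes as doublets, which were kept in the main analysis; so few calls give no measure of doublets. Cells were clustered with Seurat 5.3.0 and sctransform 0.4.2 in R 4.3.3 on 3000 variable genes, 15 principal components and a resolution of 0.8, after leaving out 702 genes, namely the members, their copies and the lists reported here. Of the lists with at least 3 markers at least 2-fold above the other cells and seen in 10% of a cluster's cells, a cluster took the name of the one with the most genes among its 10 leading genes, then the most such markers; this rule was set after the clusters were seen. The cluster that took the Purkinje name by this rule is called the Calb1+ cluster.

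UMIs were summed per mouse and cell group. Share is the percentage of a group's UMIs that come from members and has no test; CPM are counts scaled to a group total of 1000000. Differences were tested with edgeR 4.0.16 (glmQLFit and glmQLFTest, TMM, filterByExpr), Benjamini-Hochberg adjusted over all genes tested and called at adjusted p under 0.05, two-sided. DESeq2 1.42.0 and other settings served as alternatives. Scripts were tested on simulated data. Mouse numbers pair groups of the same animal; deviations from the group means correlated by 0.192 to 0.314 between stages, 0.195 to 0.387 between lineages, 0.0785 to 0.210 for myoid-like and 0.0886 to 0.258 for interneuron cells. P-values measure the spread between 3 mice.

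Copies were rows whose sequence matched the last 250 coding bases and 50 bases beyond of a member at 95% identity or more over at least 100 bases (BLAST 2.17.0). The members and gene lists were chosen with earlier results of these data known. Named members were the 5 with the largest change in each direction among those called and alike in 3 of 3 mice, the 5 with the most UMIs, Rplp0, Rplp1, Rplp2, Rpsa and members with a paralog; up to 3 genes were named per list. Rpl15, Rpl27, Rps18 and the other members singled out in the text were named after their values were seen. Some genes are not reported here by name, and counts include them.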

Additional observations from a re-analysis of the deposited data

Results flagged for a closer look

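Barcodes that were left out also held ribosomal protein UMIs. In barcodes under 500 UMIs the members made up 3.17%, 4.42% and 3.97% of UMIs in mice 1, 2 and 3, and in barcodes with more than 10% mitochondrial UMIs 1.46%, 1.89% and 1.36%. Over the cells kept the shares were 3.98%, 5.07% and 4.4%, so the barcodes left out for mitochondrial content held less in each mouse.

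The rows of near-identical copies, which are not counted among the members, held 1.22%, 1.04% and 0.924% of UMIs in the 3 mice. Mouse 1 had the lowest share in members and the highest in copies; the part of read assignment in this was not tested.

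The stage difference of Mycn differed between lineages, by 2.31 on the log2 scale (SE 0.38, adjusted p = 0.00055 by edgeR's quasi-likelihood test of the interaction). It was higher in proliferating than in differentiating granule lineage cells and lower in interneuron progenitor-like than in interneuron-like cells, each in 3 of 3 mice. In interneuron progenitor-like cells Mycn had only 9, 3 and 21 UMIs in mice 1, 2 and 3. Groups of 3 mice are too small to be searched for single samples that stand apart.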

How the results depend on the processing

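Most results kept their side of the threshold: of 1106 alternative values for 64 gene-level results, 850 kept direction and side, 235 kept the direction but missed the threshold and 21 reversed. The cause of these changes was not tested except where the setting itself shows it. Members higher in proliferating cells were 45 in the main analysis, 20 with all groups in 1 fit, 17 to 43 without 1 mouse (29, 17 and 43 without mouse 1, 2 and 3), 65 with the mouse as a block, 0 at resolution 0.4 and 0 when scaled to the summed members (2 lower). DESeq2 called 40, of which 39 were among the 45.

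At resolution 0.4, where the Atoh1+ cluster joins the Mab21l2+ cluster as differentiating and the Cntn2+ cluster is unnamed, log2 fold changes turned to −0.12 for Rps27l, −0.10 for Rpl22l1, −0.094 for Rps27a, −0.54 for Rpl11, −0.22 for Rps19, −0.15 for Rpl41, −0.30 for Rps14, −0.36 for Rps9, −0.18 for Rpl13a, −0.070 for Rplp0, −0.030 for Rplp1, −0.19 for Rplp2, −0.10 for Rpl39, −0.016 for Mrps28, −0.091 for Gnl3, −0.10 for Mycn and −0.23 for Usp10. The share of the differentiating group was then 6.52% and that of CGNP/CGN-like cells 6.07%, and no cluster took the Purkinje name that the Calb1+ cluster had by the rule. With the Cntn2+ cluster alone as the differentiating group, a choice made after seeing the data, 53 of 67 tested members were higher. The share of all genes that were higher under this setting is not given here. Scaled to the summed members, Rps14 (−0.27), Rps9 (−0.21), Rpl7l1 (−0.062) and Usp10 (−0.082) turned.

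Members higher in CGNP/CGN-like cells than outside were 12, against 19 by DESeq2, 28 without the filter on low counts, 46 with the mouse as a block, 37 at resolution 0.4, 20 with copies added (chosen after seeing the data), 6 at a minimum of 1000 UMIs, 2 with all groups in the fit, 0 to 5 without 1 mouse and 0 when scaled to the members, where 1 was lower. In myoid-like cells the 0 higher became 2 with the block, 1 at 1000 UMIs, 3 without the upper limit per cell, 1 without doublets and 0 to 1 without 1 mouse; the 0 lower became 2 when scaled to the members and 1 at resolution 0.4. In interneuron progenitor-like cells 0 became 7 with the block, 1 at resolution 1.2, 2 without the upper limit, 2 without doublets and 0 to 1 without 1 mouse, and the interaction had 13 with the block and 1 without the filter.

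With copies added the shares were 7.67% in proliferating CGNP-like, 7.43% in myoid-like, 5.81% in endothelial-like, 5.71% in myeloid-like, 4.87% in oligodendrocyte-like, 4.77% in interneuron progenitor-like, 4.66% in vascular fibroblast-like, 4.43% in differentiating CGNP/CGN-like, 4.09% in interneuron-like, 3.99% in pericyte-like and 3.10% in astrocyte-like cells, 6.48% over the granule lineage and 4.46% outside it. The other 151 alternative shares moved by less than the SD over mice. Depth limits the members with few UMIs: 11 were not tested between granule stages and 28 not between interneuron stages.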

Other observations

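Over the 12 cell groups, the log2 summed share of the members was compared with the level of each of 3345 other genes that had at least 200 UMIs. The 5 genes most like it by Pearson's r were Gm13826 (0.94), Oaz1 (0.93), Serf2 (0.88), Cox17 (0.87) and Pno1 (0.87); the groups share their libraries, and these values are a description without a test. Gm13826 had 2712 UMIs and is named in RefSeq as a retrotransposed copy of Rpl37, which makes it a near relative of a member and not an unrelated gene. The copy counted for Rpl37 was Gm4468, with 6, 0 and 4 UMIs in mice 1, 2 and 3. Oaz1, an inhibitor of polyamine synthesis, had 2317 UMIs and Serf2 had 1582. Cox17, a copper chaperone of cytochrome c oxidase, had 703, and Pno1, an assembly factor of the 40S subunit, had 293. All 5 were lowest in the Calb1+ cluster, and 4 were highest in myoid-like cells, the exception being Serf2 in endothelial-like cells.

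Oaz1 stood at 371 ± 241 CPM in the Calb1+ cluster, 690 ± 9.9 in differentiating CGNP/CGN-like, 926 ± 73.5 in proliferating CGNP-like and 1069 ± 172 in myoid-like cells (SD, n = 3 mice). Members with many copies were thinly counted: the 22 members with at least 10 near-identical copies in the reference annotation, listed in the count tables or not, had a median of 358.5 UMIs, against 1067 over all members.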
